A study of Mus musculus with 14 samples.

Results

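A panel of 38 genes that are induced by interferon was followed in GFP-positive cells sorted from the embryonic mouse cortex after in utero electroporation. The genes were given as a list of symbols of known interferon targets, drawn up with earlier results of these data known. A probe set annotated to exactly 1 of these symbols was found for 36 of the 38, and where a gene had several, the one with the highest mean over all 14 arrays was taken. Of these 36 genes, 25 lay above the dim level, set at 4 on the log2 scale, on at least 3 arrays and were tested, among 10295 tested of 18193 gene symbols on the array. Isg15, a ubiquitin-like modifier, was paired only with a probe set shared with another symbol, and Ifi44 with none, so neither is given a value.

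Every embryo of the series was electroporated, controls included, and cells that had not been electroporated were not analysed here. CD1 embryos received 800 nl of DNA in the lateral ventricle at E14.5, followed by 5 pulses of 40 volt. The construct was labelled CtrlGFP or Fezf2GFP, the latter named for Fezf2, a transcription factor of deep-layer projection neurons, and electroporated cells were purified by FACS after 24 h or 48 h. Each vector was represented by 3 arrays at 24 h and by 4 arrays at 48 h, which makes 4 groups. RNA was amplified by in vitro transcription in 2 rounds before hybridization. Nothing in the labels tells whether replicate arrays had separate litters or pools behind them. The p-values therefore reflect only how far these samples scatter, which may be technical scatter. Time after electroporation, the age of the embryo at collection and anything that was handled by time cannot be told apart in this design.

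Fezf2 itself went against the vector labels. At 24 h its probe set stood at 11.30 ± 0.42 (SD, n = 3) on the arrays labelled CtrlGFP and 9.44 ± 0.11 (SD, n = 3) on those labelled Fezf2GFP, without overlap, and at 48 h at 10.15 ± 0.48 and 9.33 ± 0.70 (SD, n = 4 each). Whether that probe set covers the part of the transcript carried by the vector is not stated in these sources, so directions between the vectors rest on the labels. CtrlGFP and Fezf2GFP are used below as the labels' names. Some arrays, among them CtrlGFP 24 h replicate 1 and Fezf2GFP 24 h replicate 3, were high for many members at once, and counts without them are given with the results.

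Interferons are secreted signals that cells release when their sensors meet foreign or misplaced nucleic acid. They act through paired surface receptors and Janus kinases on STAT proteins. A complex that holds STAT2 and IRF9 then binds the interferon-stimulated response element in the promoters of a large set of antiviral genes, while the gamma-activated site is a separate element of the interferon gamma response. The induced products include the nucleic acid sensors and signalling factors themselves, which lets a response amplify, and proteins such as USP18 that restrain it.

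The response element is visible in the promoters of the panel. The windows below are from RefSeq on GRCm38.p6, on the strand of the gene, 5′ to 3′. Capitals mark matches to the core GAAANNGAAA of the response element, read on either strand, and overlapping matches are joined. All matches shown lie before the transcription start. The first 6 belong to members that were lower at 48 h with at least 1 vector.
Bst2 (chr8:71537572-71537617, minus strand): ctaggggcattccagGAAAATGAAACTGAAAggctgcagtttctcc
Oas1a (chr5:120907526-120907560, minus strand): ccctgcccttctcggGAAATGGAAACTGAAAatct
Irgm1 (chr11:48871421-48871465, minus strand): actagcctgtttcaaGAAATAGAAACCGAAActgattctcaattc
Gbp3 (chr3:142559984-142560029, plus strand): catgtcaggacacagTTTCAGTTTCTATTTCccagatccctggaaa
Ifit1 (chr19:34640770-34640828, plus strand): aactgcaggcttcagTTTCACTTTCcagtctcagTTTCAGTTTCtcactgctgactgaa
Igtp (chr11:58199507-58199546, plus strand): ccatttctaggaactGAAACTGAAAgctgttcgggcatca
The next 3 belong to members whose probe sets stayed below the dim level on all 14 arrays, and are shown because they carry the same core.
Ifit3 (chr19:34583358-34583431, plus strand): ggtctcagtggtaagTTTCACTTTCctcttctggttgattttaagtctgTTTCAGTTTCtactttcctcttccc
Gbp2 (chr3:142620589-142620628, plus strand): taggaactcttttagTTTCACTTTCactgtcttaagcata
Stat2 (chr10:128270261-128270300, plus strand): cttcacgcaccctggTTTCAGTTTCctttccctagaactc

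A promoter of 300 bases, 250 before the start and 50 after it, was at hand for 30 of the 38 genes. The core was found in 16 of them (53.3%), against 1079 of 27025 genes with a promoter in the table (3.99%). Among members lower at 48 h with both vectors it was present in 7 of 11 promoters (63.6%). Among the other genes lower at 48 h with both vectors it was present in 17 of 309 (5.50%). It was also present in 2 of 6 tested members that passed in neither comparison of times and in 4 of 8 members that were not tested or had no probe set. The core was thus present on both sides of the comparison of times. In Ifitm3, Ddx58, Ifih1 and Eif2ak2 the matches lay after the start, at positions 3 to 12 and 20 to 29 in Ifitm3, 3 to 12 in Ddx58, 33 to 42 in Ifih1 and 19 to 28 in Eif2ak2. The gamma-activated site TTCNNNGAA, which reads the same on both strands, was found in 9 of 30 members (30.0%) and in 9.55% of all genes with a promoter. These matches describe letters in a window and no binding was measured.

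The tested genes were higher at 24 h than at 48 h after electroporation, with either vector. With CtrlGFP, 19 of 25 were lower at 48 h and 0 higher (limma, Benjamini-Hochberg adjusted p at or under 0.05 over all genes tested), where 6.69% of all tested genes were lower. With Fezf2GFP, 14 of 25 were lower and 0 higher, where 5.67% of all tested genes were lower. All 14 were also among the 19, and 3.90% of all tested genes were lower with both vectors. The median log2 difference of the 25, 48 h minus 24 h, was -2.77 with CtrlGFP and -2.85 with Fezf2GFP, while the medians of all tested genes were -0.019 and -0.010. The difference was below 0 for 25 of 25 with each vector, and ranged from -5.91 to -0.23 with CtrlGFP and from -5.81 to -0.27 with Fezf2GFP.

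These counts have a floor built into them. A member that was dark at 48 h entered the test only because its 24 h arrays were bright, and it had to come out lower. Of the 25 tested members, 21 lay above the dim level on all 6 arrays of 24 h, but at 48 h 12 lay above it on all 8 arrays, 7 on some and 6 on none. Restricted to genes above the dim level on at least 3 arrays at each time, 18 members remained. Of these, 13 were lower at 48 h with CtrlGFP (6.66% of all genes so restricted) and 11 with Fezf2GFP (5.42%), with median differences of -2.62 and -2.67. Fewer responding cells and less RNA per cell cannot be told apart in sorted pools of cells.

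**Figure D1:**
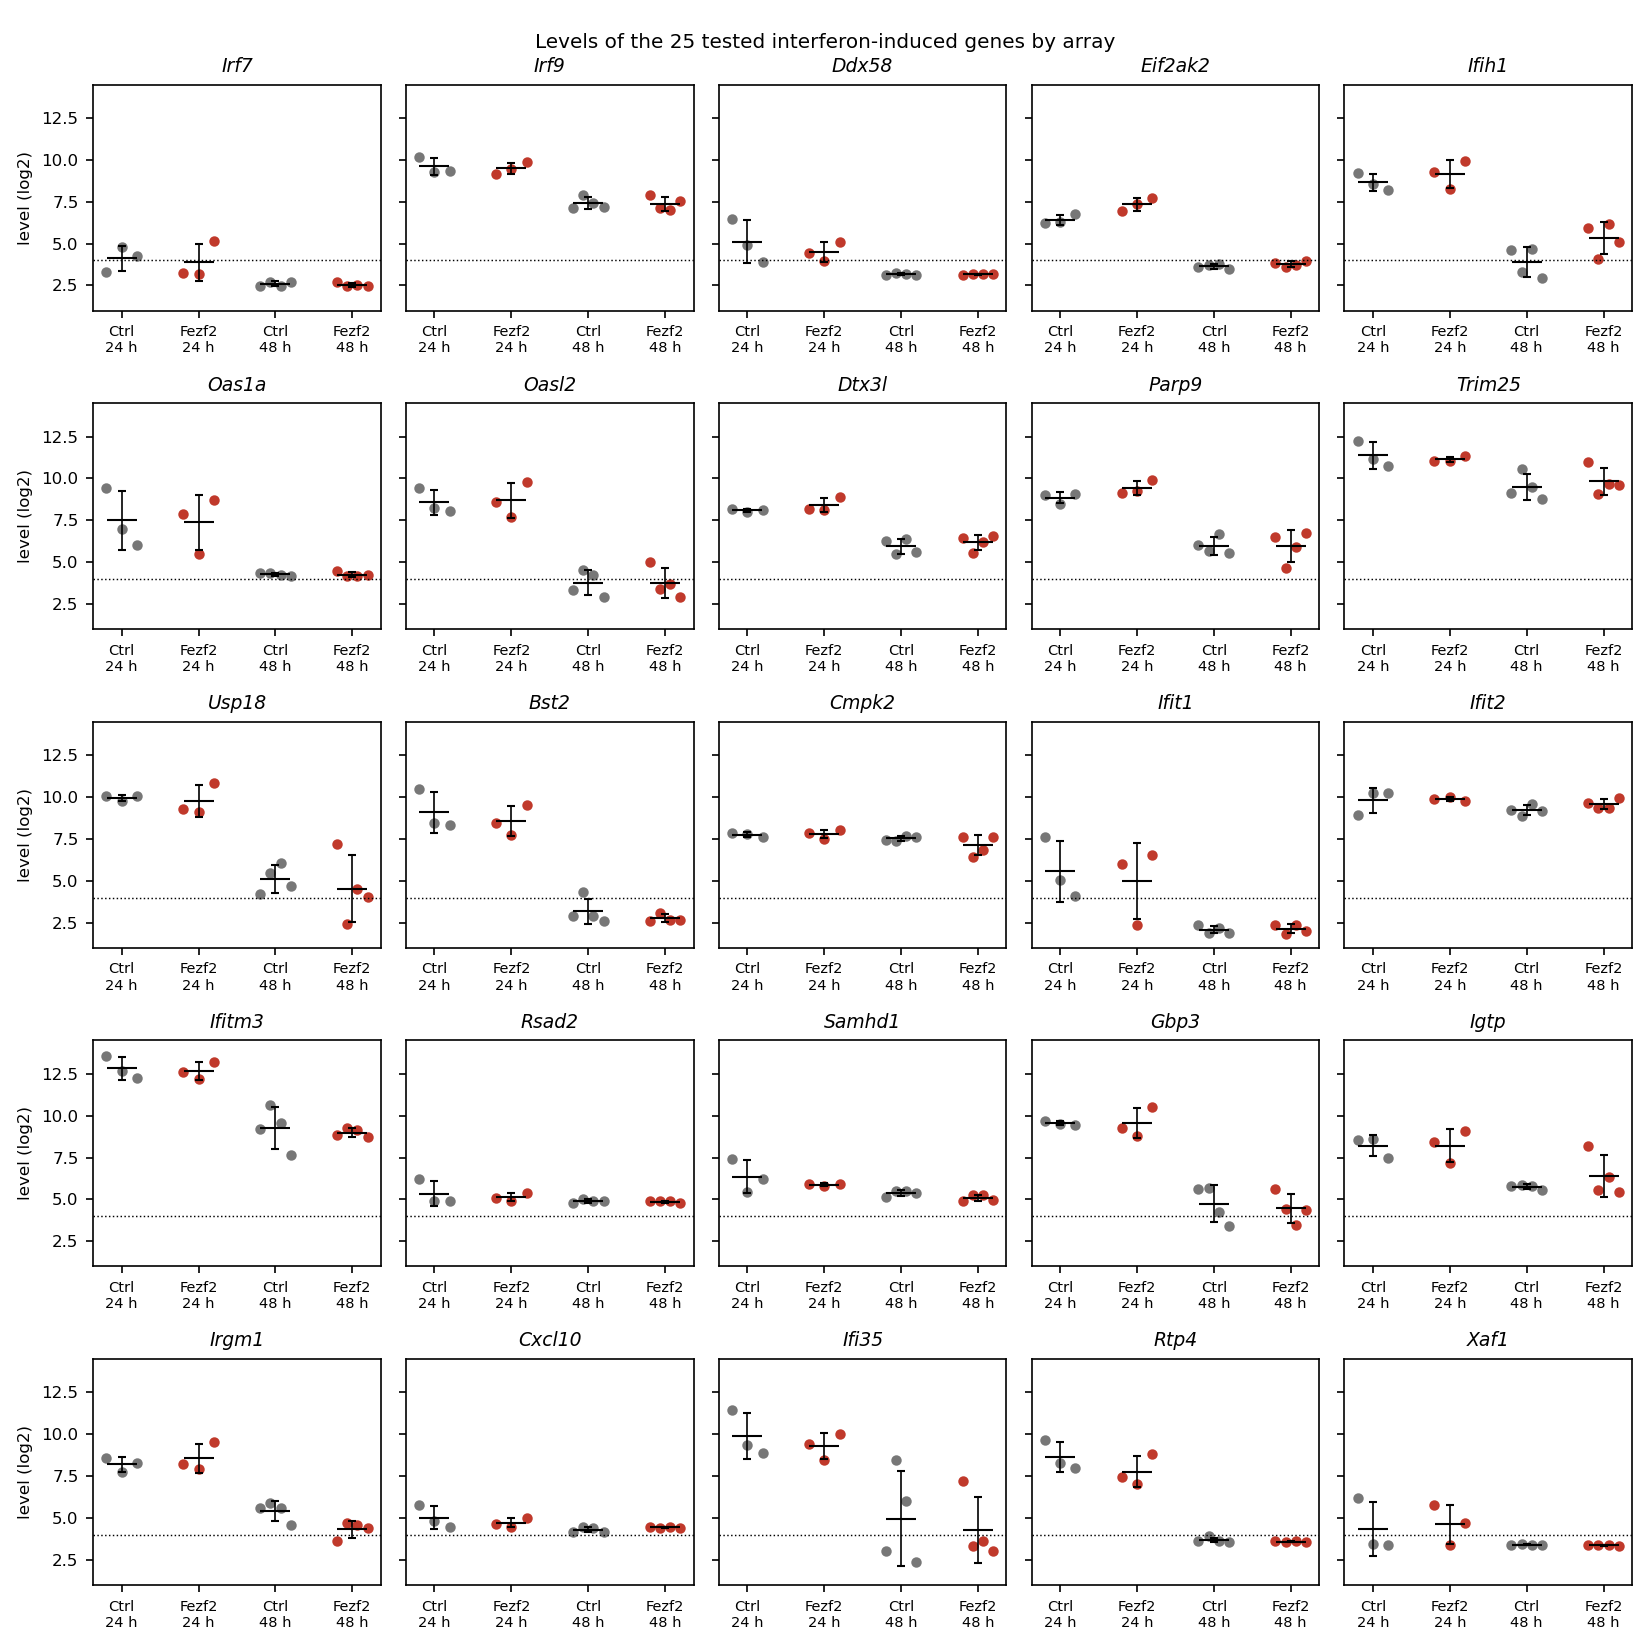
Level of each tested member on each array (log2, vertical axis) in the 4 groups, with 1 point per array, the group mean and the SD as bars, and the dim level of 4 as a dotted line. In 17 of the 25 panels all 6 arrays of 24 h lie above all 8 arrays of 48 h, whereas Ifit2, Rsad2 and Cmpk2 show levels that overlap between the times. In the panel of Ifit1, counted among the 17, the nearest arrays of the times both read 2.36.

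The factors come first. IRF9 is the DNA-binding part of the complex at the response element. Irf9 stood at 10.19, 9.29 and 9.36 on the 3 CtrlGFP arrays of 24 h and at 9.17, 9.44 and 9.86 on the 3 Fezf2GFP arrays. At 48 h it stood at 7.12, 7.93, 7.44 and 7.19 with CtrlGFP and at 7.91, 7.10, 6.98 and 7.52 with Fezf2GFP. Every 24 h array lay above every 48 h array, and the vectors overlapped at both times. The log2 difference between the times was -2.19 with CtrlGFP (SE 0.30, limma adjusted p = 0.000491) and -2.11 with Fezf2GFP (SE 0.30, adjusted p = 0.000777).

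IRF7 is the factor that drives the later wave of interferon genes. Irf7 lay at 3.33, 4.80 and 4.25 with CtrlGFP and 3.27, 3.18 and 5.17 with Fezf2GFP at 24 h, so 3 of 6 arrays exceeded the dim level. At 48 h it lay between 2.47 and 2.73 on all 8 arrays. It was lower at 48 h with CtrlGFP (log2 difference -1.53, SE 0.42, adjusted p = 0.0319, at least 1.09-fold against the dim level) and did not pass with Fezf2GFP (-1.33, adjusted p = 0.0597). At 48 h, leaving out CtrlGFP replicate 1 (adjusted p = 0.0724), 3 (0.0625) or 4 (0.0608) ended the CtrlGFP call of Irf7. The Fezf2GFP value passed without CtrlGFP 24 h replicate 1 (0.0383), Fezf2GFP 24 h replicate 1 (0.0475) or Fezf2GFP 24 h replicate 2 (0.0485). Stat2, the STAT of the type I complex, and Irf1, a factor of the interferon gamma response, lay below the dim level on all arrays.

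Among the sensors, the cytosolic RNA sensor Ifih1 showed one of the widest gaps. At 24 h it stood at 9.19, 8.57 and 8.22 with CtrlGFP and at 9.30, 8.29 and 9.91 with Fezf2GFP. At 48 h the values of Ifih1 were 4.61, 3.28, 4.67 and 2.95 with CtrlGFP and 5.95, 4.06, 6.17 and 5.12 with Fezf2GFP. The lowest 24 h array was thus above the highest 48 h array. The difference between the times was -4.78 with CtrlGFP (SE 0.57, adjusted p = 0.000299), where 2 of the 4 arrays of 48 h lay below the dim level and no fold is given, and -3.85 with Fezf2GFP (14.4-fold, SE 0.57, adjusted p = 0.00103).

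Ddx58 encodes the RNA sensor RIG-I. Its 24 h values were 6.47, 4.91 and 3.93 with CtrlGFP and 4.45, 3.95 and 5.09 with Fezf2GFP, and at 48 h all 8 arrays lay between 3.13 and 3.23. With CtrlGFP Ddx58 was lower at 48 h (-1.93, SE 0.44, adjusted p = 0.0105, at least 2.15-fold), a call lost when only the groups compared entered the fit (adjusted p = 0.0728). With Fezf2GFP the value of Ddx58 was -1.32 (adjusted p = 0.0690), and it passed in 6 of 24 other fits, among them those without CtrlGFP 24 h replicate 1 (0.00572) and without CtrlGFP 24 h replicate 3 (0.0209). Dhx58, a relative of RIG-I, lay below the dim level on all arrays.

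Eif2ak2 encodes PKR, the kinase that halts translation on double-stranded RNA. It read 6.21, 6.27 and 6.78 with CtrlGFP and 6.94, 7.38 and 7.72 with Fezf2GFP at 24 h. At 48 h all 8 arrays lay between 3.47 and 3.96, below the dim level. Eif2ak2 had the smallest adjusted p of the panel in both comparisons of times, at -2.77 with CtrlGFP (SE 0.20, adjusted p = 1.07e-05, at least 5.35-fold lower) and -3.56 with Fezf2GFP (SE 0.20, adjusted p = 1.94e-06, at least 10.2-fold lower). A dimmer probe set of Eif2ak2, above the dim level on 3 arrays, did not follow it, at 0.13 with CtrlGFP and -0.80 with Fezf2GFP.

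The oligoadenylate synthetases make the messenger that activates RNase L. Oasl2, a relative of this family, stood at 9.45, 8.23 and 8.06 with CtrlGFP and 8.62, 7.70 and 9.77 with Fezf2GFP at 24 h. At 48 h Oasl2 stood at 3.35, 4.56, 4.22 and 2.94 with CtrlGFP and 5.0, 3.40, 3.72 and 2.95 with Fezf2GFP. The times did not overlap, and 5 of the 8 arrays of 48 h were below the dim level. The differences were -4.81 (SE 0.58, adjusted p = 0.000317) and -4.93 (SE 0.58, adjusted p = 0.000281), with no fold given because both 48 h means of Oasl2 were below the dim level.

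Oas1a is a synthetase whose promoter window ends just before the start site. Its values were 9.44, 6.99 and 6.05 with CtrlGFP and 7.86, 5.52 and 8.74 with Fezf2GFP at 24 h, against 4.17 to 4.45 on the 8 arrays of 48 h. Both comparisons of Oas1a passed, at -3.22 (SE 0.73, adjusted p = 0.0111) and -3.11 (SE 0.73, adjusted p = 0.0146). The Fezf2GFP call of Oas1a was lost without Fezf2GFP 24 h replicate 1 (adjusted p = 0.0568) or replicate 3 (0.0890). Oas2 lay below the dim level on all arrays.

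USP18 strips ISG15 from proteins and binds the interferon receptor to damp its signal. Usp18 stood at 10.05, 9.74 and 10.05 with CtrlGFP and at 9.29, 9.13 and 10.84 with Fezf2GFP at 24 h. Its 48 h values were 4.19, 5.44, 6.06 and 4.68 with CtrlGFP and 7.22, 2.42, 4.49 and 4.02 with Fezf2GFP, the widest spread of any tested member in that group (SD 2.00). No array of 48 h reached the level of any array of 24 h, and the differences were -4.85 (28.9-fold, SE 0.85, adjusted p = 0.00242) and -5.21 (37.0-fold, SE 0.85, adjusted p = 0.00194). The 37.0-fold rests in part on the array at 2.42, below the dim level.

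PARP9 and DTX3L form a complex of an ADP-ribosyltransferase and a ubiquitin ligase, and their genes share a bidirectional promoter. Parp9 stood at 9.0, 8.47 and 9.10 with CtrlGFP and 9.11, 9.26 and 9.90 with Fezf2GFP at 24 h. At 48 h Parp9 stood at 6.03, 5.65, 6.71 and 5.54 with CtrlGFP and 6.53, 4.66, 5.91 and 6.74 with Fezf2GFP. Both genes stayed above the dim level on all 14 arrays, so their falls are measured on both sides. Parp9 differed between the times by -2.88 (7.34-fold, SE 0.44, adjusted p = 0.00106) and -3.46 (11-fold, SE 0.44, adjusted p = 0.000494). Dtx3l differed by -2.14 (4.41-fold, SE 0.29, adjusted p = 0.000479) and -2.22 (4.66-fold, SE 0.29, adjusted p = 0.000548), with 24 h levels of 7.99 to 8.89 and 48 h levels of 5.52 to 6.55.

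Trim25, a ubiquitin ligase that activates RIG-I, was above the dim level on all arrays, between 10.73 and 12.26 at 24 h and between 8.80 and 10.98 at 48 h. It was lower at 48 h with CtrlGFP (-1.86, SE 0.49, adjusted p = 0.0242) and did not pass with Fezf2GFP (-1.30, SE 0.49, adjusted p = 0.112). At 24 h, leaving out CtrlGFP replicate 1 (adjusted p = 0.114) or 2 (0.0526) ended the CtrlGFP call of Trim25, and at 48 h, leaving out CtrlGFP replicate 1 (0.0650) or 4 (0.0717) did. The Fezf2GFP value passed without Fezf2GFP 48 h replicate 1 (0.0331), the array on which Trim25 read 10.98. Parp14, another ADP-ribosyltransferase, exceeded the dim level on 2 arrays alone, at 4.57 on CtrlGFP 24 h replicate 1 and 5.86 on Fezf2GFP 24 h replicate 1, and was not tested.

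The antiviral effectors split. Bst2 encodes tetherin, which holds budding virus particles on the cell surface, and its level at 48 h was mostly below the dim level. At 24 h Bst2 stood at 10.48, 8.47 and 8.32 with CtrlGFP and at 8.43, 7.75 and 9.55 with Fezf2GFP. At 48 h it stood at 2.88, 4.31, 2.89 and 2.63 with CtrlGFP and at 2.58, 3.10, 2.67 and 2.69 with Fezf2GFP, so that 1 of these 8 arrays was above the dim level. The differences were -5.91 with CtrlGFP (SE 0.55, adjusted p = 5.17e-05) and -5.81 with Fezf2GFP (at least 23.8-fold, SE 0.55, adjusted p = 7.07e-05). No fold is given for CtrlGFP, since 3 of its 4 arrays of 48 h lay below the dim level.

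Ifitm3, a membrane protein that blocks virus entry, remained well above the dim level at 48 h. Its values were 13.58, 12.64 and 12.26 with CtrlGFP and 12.60, 12.16 and 13.20 with Fezf2GFP at 24 h. At 48 h Ifitm3 read 9.20, 10.66, 9.54 and 7.66 with CtrlGFP and 8.84, 9.28, 9.15 and 8.71 with Fezf2GFP. The times did not overlap. Differences were -3.56 (11.8-fold, SE 0.54, adjusted p = 0.00103) and -3.66 (12.6-fold, SE 0.54, adjusted p = 0.00104).

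The IFIT proteins bind foreign RNA caps, and their genes did not share a pattern. Ifit1 stood at 7.61, 5.04 and 4.08 with CtrlGFP and at 6.02, 2.36 and 6.57 with Fezf2GFP at 24 h, and between 1.85 and 2.36 on all arrays of 48 h. Fezf2GFP 24 h replicate 2 was thus at the level of the 48 h arrays. Ifit1 was lower with CtrlGFP (-3.50, SE 0.89, adjusted p = 0.0210, at least 2.99-fold) and did not pass with Fezf2GFP (-2.85, SE 0.89, adjusted p = 0.0567). The CtrlGFP call of Ifit1 was lost without CtrlGFP 24 h replicate 1 (adjusted p = 0.0992) or CtrlGFP 48 h replicate 4 (0.0527). Without Fezf2GFP 24 h replicate 2 the Fezf2GFP difference of Ifit1 was -4.16 (0.00533), and it also passed without CtrlGFP 24 h replicate 1 (0.0253) or replicate 3 (0.0478).

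Ifit2 was above the dim level on all arrays, between 8.91 and 10.27 at 24 h and between 8.86 and 9.95 at 48 h. Its differences of -0.59 (SE 0.30, adjusted p = 0.259) and -0.30 (SE 0.30, adjusted p = 0.612) did not pass. Without CtrlGFP 24 h replicate 1, its lowest 24 h array, the CtrlGFP difference of Ifit2 was -1.03 and passed (adjusted p = 0.0112). Ifit3, whose promoter holds 2 matches to the response element core as that of Ifit1 does, stayed below the dim level on all arrays, as did the GTPases Mx1 and Mx2, textbook interferon-induced effectors against RNA viruses.

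Rsad2 encodes viperin, which makes a chain-terminating nucleotide, and the neighbouring gene Cmpk2 encodes a mitochondrial nucleotide kinase. The probe set used for Rsad2 read 6.20, 4.93 and 4.90 with CtrlGFP and 5.10, 4.90 and 5.38 with Fezf2GFP at 24 h, and 4.76 to 5.03 at 48 h. Its differences were -0.45 (SE 0.26, adjusted p = 0.338) and -0.27 (SE 0.26, adjusted p = 0.613). A second probe set of Rsad2, above the dim level on 3 of 14 arrays, differed by -1.84 and -2.20, so the 2 probe sets disagree in size. Cmpk2 lay between 7.52 and 8.01 at 24 h and between 6.40 and 7.67 at 48 h, with differences of -0.23 (adjusted p = 0.695) and -0.68 (adjusted p = 0.128).

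Samhd1, which depletes the nucleotides that viruses need, lay between 5.45 and 7.41 at 24 h and between 4.93 and 5.51 at 48 h. It did not pass with CtrlGFP (-0.99, SE 0.33, adjusted p = 0.0702) or with Fezf2GFP (-0.79, SE 0.33, adjusted p = 0.153). The CtrlGFP difference of Samhd1 was -1.44 and passed without CtrlGFP 24 h replicate 2 (adjusted p = 0.00736), and the Fezf2GFP value passed without CtrlGFP 24 h replicate 1 (0.0156).

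The GTPases of the interferon gamma response attack the membranes around intracellular pathogens. Gbp3 stood at 9.68, 9.50 and 9.47 with CtrlGFP and at 9.28, 8.81 and 10.53 with Fezf2GFP at 24 h. At 48 h Gbp3 stood at 5.61, 5.71, 4.24 and 3.43 with CtrlGFP and at 5.62, 4.42, 3.49 and 4.34 with Fezf2GFP. The times stood more than 3 log2 units apart at their nearest arrays. Differences were -4.80 (27.9-fold, SE 0.59, adjusted p = 0.000328) and -5.07 (33.6-fold, SE 0.59, adjusted p = 0.000268). These folds rest in part on the arrays at 3.43 and 3.49, below the dim level. Gbp2, with the same core in its promoter, stayed below the dim level.

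Irgm1 was the member whose 48 h levels differed most downward between the vectors. It stood at 8.59, 7.73 and 8.27 with CtrlGFP and 8.20, 7.92 and 9.55 with Fezf2GFP at 24 h. At 48 h it stood at 5.61, 5.90, 5.60 and 4.56 with CtrlGFP and 3.61, 4.73, 4.59 and 4.38 with Fezf2GFP. The fall of Irgm1 was -2.78 with CtrlGFP (6.87-fold, SE 0.42, adjusted p = 0.000996) and -4.23 with Fezf2GFP (18.8-fold, SE 0.42, adjusted p = 8.55e-05). The 18.8-fold rests in part on the array at 3.61, below the dim level. The difference between these falls did not pass (interaction -1.45, 95% interval -2.74 to -0.16, adjusted p = 0.967).

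Igtp, a related GTPase, stood between 7.16 and 9.06 at 24 h. At 48 h it stood between 5.55 and 5.87 with CtrlGFP, and with Fezf2GFP at 8.16, 5.57, 6.36 and 5.46, so its replicate 1 overlapped the 24 h arrays. Igtp was lower with CtrlGFP (-2.46, SE 0.59, adjusted p = 0.0147), a call lost without CtrlGFP 24 h replicate 1 (adjusted p = 0.0579) or replicate 2 (0.0633). With Fezf2GFP it did not pass (-1.83, SE 0.59, adjusted p = 0.0630), but passed without Fezf2GFP 48 h replicate 1 (-2.42, adjusted p = 0.00573) or Fezf2GFP 24 h replicate 2 (0.0415).

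Of the remaining members, Rtp4, an interferon-induced chaperone of surface receptors, fell to below the dim level. It read 9.63, 8.31 and 7.98 with CtrlGFP and 7.45, 7.03 and 8.84 with Fezf2GFP at 24 h, and 3.56 to 3.90 on the 8 arrays of 48 h. The difference of Rtp4 was -4.95 with CtrlGFP (at least 24.9-fold, SE 0.41, adjusted p = 2.27e-05) and -4.18 with Fezf2GFP (at least 13.7-fold, SE 0.41, adjusted p = 8.12e-05). A second probe set of Rtp4, above the dim level on 6 arrays, differed by -0.92 and -0.74, and averaged over both probe sets Rtp4 differed by -2.94 and -2.46 and still passed.

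Ifi35 was the least even member at 48 h. It stood at 11.46, 9.38 and 8.90 with CtrlGFP and 9.40, 8.47 and 10.02 with Fezf2GFP at 24 h. At 48 h it stood at 3.01, 8.46, 6.0 and 2.39 with CtrlGFP and 7.21, 3.32, 3.62 and 3.03 with Fezf2GFP. CtrlGFP replicate 2 almost reached the 24 h arrays. Ifi35 was lower at -4.95 (SE 1.35, adjusted p = 0.0292) and -5.0 (SE 1.35, adjusted p = 0.0286), and neither call held when single arrays were left out. With CtrlGFP it was lost without 24 h replicate 1 (adjusted p = 0.122) or 2 (0.0647) and without 48 h replicate 1 (0.0824) or 4 (0.0809). With Fezf2GFP it was lost without 24 h replicate 1 (0.0767), 2 (0.0653) or 3 (0.118) and without 48 h replicate 2 (0.0731), 3 (0.0717) or 4 (0.0625).

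The chemokine gene Cxcl10 lay between 4.45 and 5.78 at 24 h and between 4.16 and 4.48 at 48 h. It did not pass with CtrlGFP (-0.73, SE 0.25, adjusted p = 0.0818) or Fezf2GFP (-0.29, SE 0.25, adjusted p = 0.551), and the CtrlGFP difference of Cxcl10 was -1.01 and passed without CtrlGFP 24 h replicate 3 (adjusted p = 0.0209). Xaf1, a pro-apoptotic gene, was above the dim level on 3 arrays of 24 h, at 6.19 on CtrlGFP replicate 1 and at 5.75 and 4.71 on Fezf2GFP replicates 1 and 3, and on none at 48 h. Its differences were -0.94 (adjusted p = 0.402) and -1.24 (adjusted p = 0.234). Sp100, a nuclear body protein, and Lgals3bp, a secreted glycoprotein, stayed below the dim level, so that 10 of the 11 measured members that were not tested were dark on all 14 arrays, with values of 1.72 to 3.73.

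**Figure D2:**
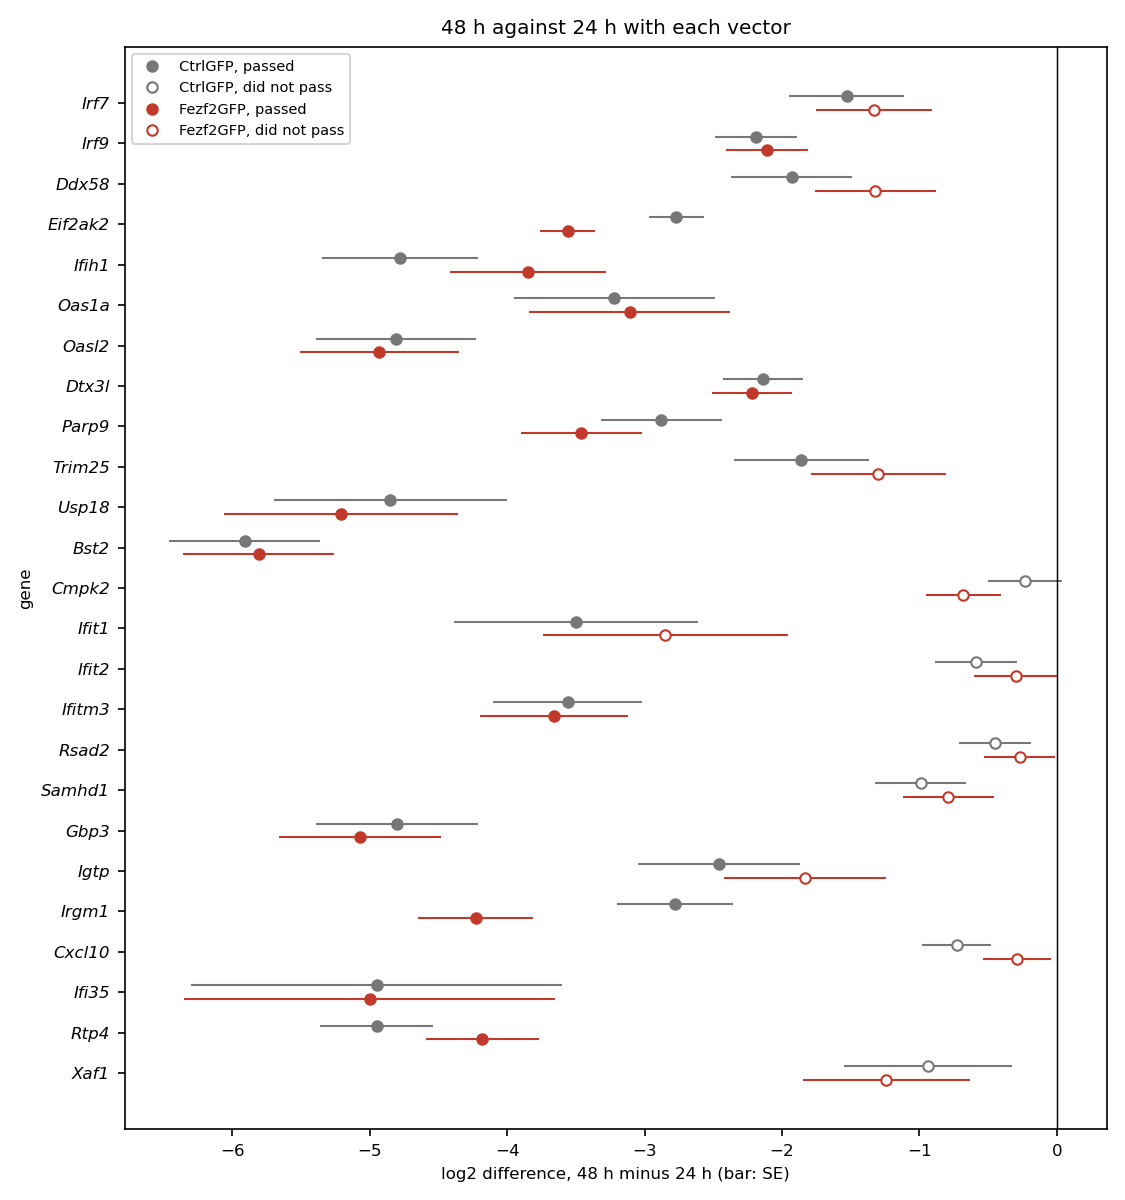
Log2 difference, 48 h minus 24 h, for each tested member (rows) with CtrlGFP (grey) and Fezf2GFP (red), with the SE as bars and filled points where the adjusted p was at or under 0.05. All points lie to the left of 0, from -5.91 for Bst2 with CtrlGFP to -0.23 for Cmpk2 with CtrlGFP, and 14 members are filled for both vectors.

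Across the panel, the arrays of the times did not overlap for 19 of 25 members with CtrlGFP (12.8% of all tested genes separated in this direction) and for 22 of 25 with Fezf2GFP (12.9%). For 17 of 25 all 6 arrays of 24 h lay above all 8 arrays of 48 h, against 4.79% of all tested genes. These counts carry the floor described above. Of the 25 members, 6 lay above the dim level on no array of 48 h and were tested only through their 24 h arrays. Some of the separations counted were of almost no size. For Ifit1 the lowest 24 h array and the highest 48 h array both read 2.36, below the dim level. With Fezf2GFP the nearest arrays of the times read 4.90 and 4.90 for Rsad2 and 3.40 and 3.39 for Xaf1. Separation was not counted among members above the dim level at both times. In every alternative fit in which it was tested, and with both vectors, each of these 12 members passed: Bst2, Dtx3l, Eif2ak2, Gbp3, Ifih1, Ifitm3, Irf9, Irgm1, Oasl2, Parp9, Rtp4 and Usp18. Of them, Bst2, Eif2ak2 and Rtp4 could not enter the fit restricted to genes above the dim level at both times. The floor described above therefore bears on their calls in the other fits. The 5 members called with CtrlGFP alone, Ifit1, Irf7, Ddx58, Trim25 and Igtp, are not shown to differ between the vectors, since the difference itself did not pass for any member. Tested members had 9 further probe sets above the dim level on at least 3 arrays, over 8 members. Of these, 8 had differences below 0 with both vectors, the exception being the probe set of Eif2ak2 given above.

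Arrays that were high for one member tended to be high for many. CtrlGFP 24 h replicate 1 was the highest of its group for 20 of the 25 tested members and Fezf2GFP 24 h replicate 3 for 22, while Fezf2GFP 24 h replicate 2 was the lowest for 21. At 48 h CtrlGFP replicate 2 was the highest of its group for 17 and Fezf2GFP replicate 1 for 14. The median of the tested members per array was 7.70 to 9.06 at 24 h and 4.18 to 5.44 at 48 h, while that of all tested genes was 9.19 to 9.62 on the 14 arrays. The median SD of a member within a group was 0.74 and 0.78 for CtrlGFP and Fezf2GFP at 24 h and 0.30 and 0.28 at 48 h, where many members lay at the dim level. Without CtrlGFP 24 h replicate 1 and CtrlGFP 48 h replicate 2 together, 17 members were lower with CtrlGFP and 19 with Fezf2GFP. Without Fezf2GFP 24 h replicate 3 and Fezf2GFP 48 h replicate 1 together, 23 members were tested, and 18 were lower with CtrlGFP and 13 with Fezf2GFP.

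**Figure D3:**
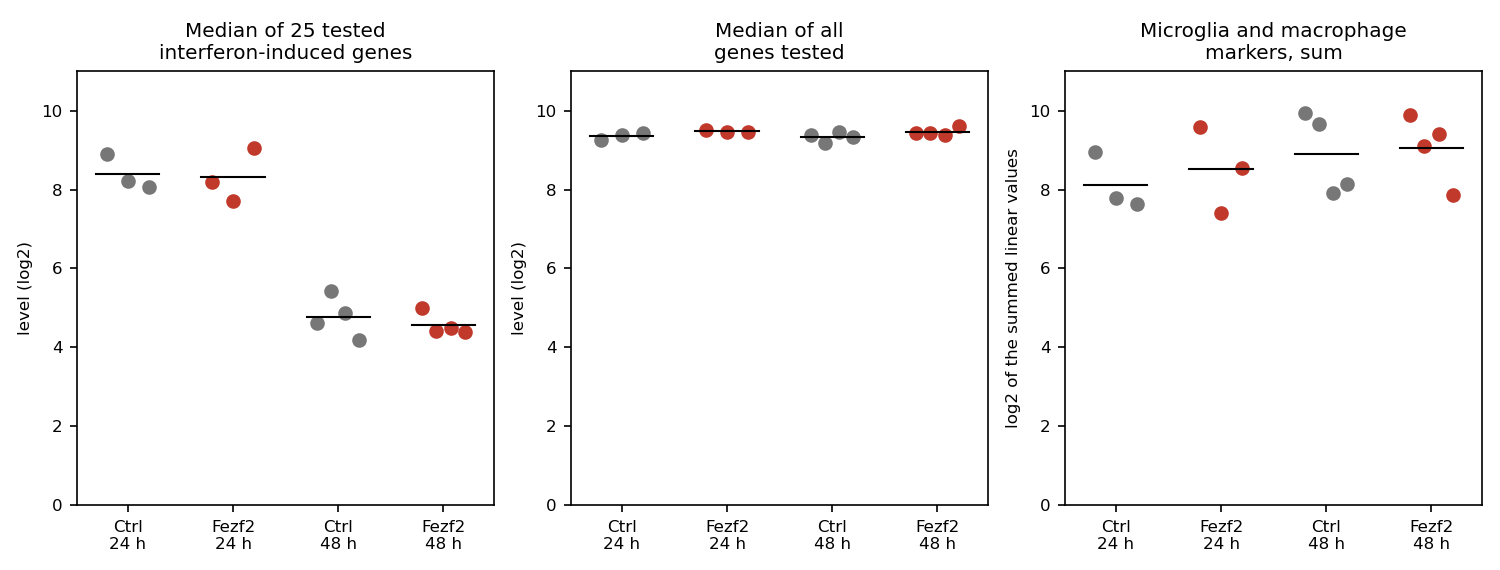
Per array, the median level of the tested members (left, log2), the median of all tested genes (middle, log2) and the summed level of the microglia and macrophage markers (right, log2 of summed linear values), with 1 point per array and the group mean as a line. The members drop from 7.70 to 9.06 at 24 h to 4.18 to 5.44 at 48 h, while the median of all tested genes stays between 9.19 and 9.62 and the marker sum, 170 to 771 in linear units at 24 h, is 231 to 979 at 48 h.

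The sorted cells carried the markers of cortical progenitors and their neurons, of which 16 of 17 had a probe set and all 16 were tested. Between the times 4 of these 16 were lower at 48 h with CtrlGFP, where 6.69% of all tested genes were lower. These were the progenitor genes Nes (-1.21), Eomes (-0.83), Neurog2 (-0.92) and Slc1a3 (-0.93). The neuronal Tubb3 was higher (0.80), where 605 of 10295 tested genes were higher. The CtrlGFP call of Neurog2 ended when CtrlGFP 24 h replicate 2 (adjusted p = 0.107) or 3 (0.105), or CtrlGFP 48 h replicate 2 (0.0539) or 4 (0.0665), was left out. That of Tubb3 ended when CtrlGFP 24 h replicate 1 (adjusted p = 0.0921) or 2 (0.0782), or CtrlGFP 48 h replicate 3 (0.0524) or 4 (0.0725), was left out. With Fezf2GFP 1 passed, Neurog2 at -1.17, where 5.67% of all tested genes were lower. The part of this shift in cell markers in the members' levels was not tested.

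Microglia and macrophages respond strongly to interferon, and 11 of their 14 markers lay below the dim level on all arrays, among them the defining Aif1, Cx3cr1, Csf1r, P2ry12 and Tmem119. The exceptions were C1qb, Ctss and Laptm5. The summed linear level of the 14 markers, carried by these exceptions, was 170 to 771 at 24 h and 231 to 979 at 48 h. It varied widely within each time, and the ranges of the times overlapped. Markers of other blood cells (7 of 9 with a probe set) and of the meninges (5 of 5) were below the dim level on all arrays, as were 6 of 9 measured markers of endothelium and 3 of 6 of pericytes. The endothelial sum, carried by Cldn5, Esam and Slco1c1, ranged from 86 to 1060 at 24 h and from 308 to 1710 at 48 h, and the pericyte sum from 147 to 1190 and from 237 to 1130. No marker of these other cell types passed in either comparison of times in this fit, where few of them were tested. Of all 10295 tested genes, 1294 passed with CtrlGFP and 1241 with Fezf2GFP. In other fits some passed as higher at 48 h with Fezf2GFP. Slco1c1, at 2.26 (adjusted p = 0.0552), passed in 5 of them, among them those without Fezf2GFP 24 h replicate 1 (3.09, 0.0113) and without CtrlGFP 48 h replicate 2 (0.0492). Cldn5 passed without Fezf2GFP 48 h replicate 1 (1.91, adjusted p = 0.0300), and Pdgfrb (2.13, 0.0328) and Rgs5 (2.21, 0.0471) without Fezf2GFP 24 h replicate 1. With array weights these 4 and Esam passed with Fezf2GFP, and Rgs5 with CtrlGFP. The part of these cell types in the members' levels was not tested.

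Between the vectors, the panel showed no call at either time. At 24 h, 0 of 25 tested members passed in limma, where 1.06% of all tested genes did, and 1 had an unadjusted p under 0.05. With array weights 2 members passed at 24 h, Eif2ak2 higher and Irf7 lower in the arrays labelled Fezf2GFP. At 48 h, 0 of 25 passed, where 3.13% of all tested genes did, and 2 had an unadjusted p under 0.05. No alternative gave a call at 48 h. The floor limits this count too, since 6 of the 25 lay above the dim level on no array of 48 h with either vector. For the interaction, the difference between the 48 h and the 24 h effect, 0 of 25 passed, where 0.0971% of all tested genes did, and 2 had an unadjusted p under 0.05. The median member difference, Fezf2GFP minus CtrlGFP, was -0.12 at 24 h and -0.02 at 48 h, against 0.056 and 0.063 for all tested genes.

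At 24 h the 2 vectors occupied separate ranges for 2 of 25 members, Eif2ak2 and Parp9, both higher with Fezf2GFP, where 19.6% of all tested genes did not overlap. At 48 h the vectors overlapped for 25 of 25, while 9.07% of all tested genes did not. Of these 25, 6 lay above the dim level on no array of 48 h and 7 on only some. A difference between the vectors could hardly show for members at the floor, so this count says little about them. Eif2ak2 was the member nearest to a call, at 0.93 (SE 0.22, 95% interval 0.46 to 1.39, adjusted p = 0.0657), and it passed without Fezf2GFP 24 h replicate 1 (1.13, adjusted p = 0.0437). Its 48 h difference was 0.14 (95% interval -0.27 to 0.54), and the difference of the effects, -0.79 (SE 0.28, interval -1.40 to -0.17, adjusted p = 0.848), did not pass. Parp9 differed by 0.56 at 24 h (interval -0.46 to 1.58).

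At 48 h the largest differences of the panel were those of Ifih1 and Irgm1. Ifih1 was 1.45 higher in the arrays labelled Fezf2GFP (SE 0.53, 95% interval 0.31 to 2.59, adjusted p = 0.191), and Irgm1 differed by -1.09 (SE 0.39, interval -1.93 to -0.25, adjusted p = 0.178). Neither passed in any alternative fit, and for both the arrays of the vectors overlapped. For other members the intervals still allow sizeable differences: that of Usp18 at 48 h ran from -2.26 to 1.15, that of Bst2 from -1.52 to 0.69 and that of Irf9 from -0.63 to 0.55. The 95% interval of a member reached 0.47 to 3.12 to each side at 24 h (median 1.02) and 0.40 to 2.70 at 48 h (median 0.88). These intervals are not adjusted for the number of genes tested. They use 1 spread per member over all 4 groups, although members mostly scattered more at 24 h than at 48 h. An interval can thus be too wide at 48 h and too narrow at 24 h. For a member mostly below the dim level at 48 h, such as Bst2, it sets no bound on a difference in RNA. Ifih1 at 1.45 and Irgm1 at -1.09 had unadjusted p under 0.05 in limma and still did not pass. A change larger than its interval's reach could thus go without a call.

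**Figure D4:**
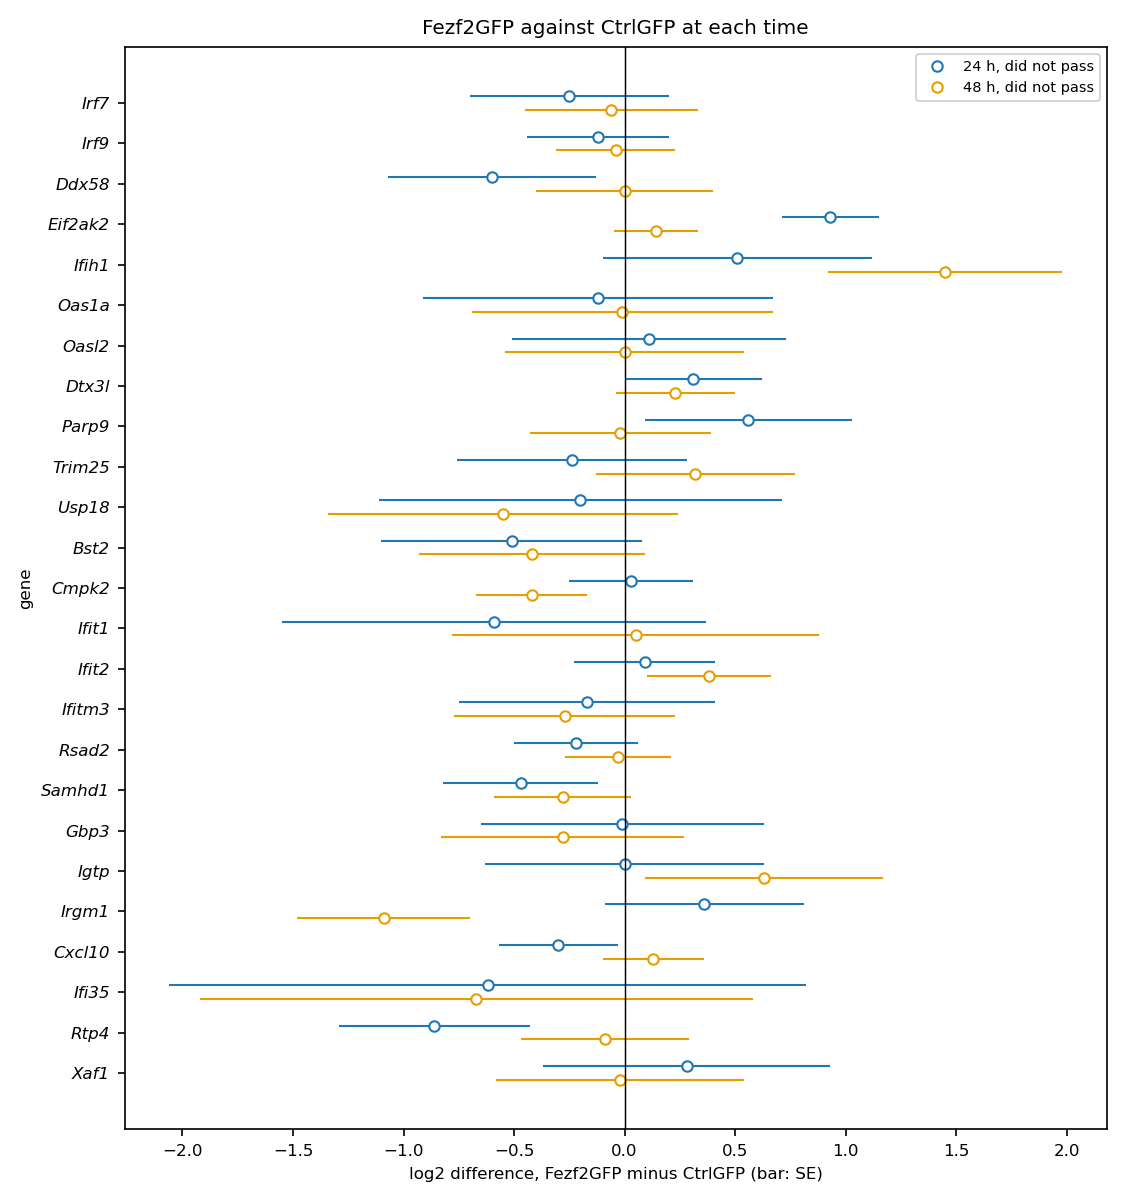
Log2 difference, Fezf2GFP minus CtrlGFP, for each tested member (rows) at 24 h (blue) and 48 h (orange), with the SE as bars. No member passed, so all points are open, and they range from -1.09 for Irgm1 at 48 h to 1.45 for Ifih1 at 48 h.

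Genes upstream of the panel gave no call between the times in the listed groups. The ligands come first in the pathway, and 9 of 17 interferon genes had a probe set. All 9 lay below the dim level on all arrays, the highest at 3.31, and Ifnb1, the interferon that infected cells release early, read 2.34 to 2.49 on the 14 arrays. The receptor genes Ifnar1 and Ifnar2, chosen after their values were seen, were above the dim level on all 14 arrays, at 5.76 to 8.47 and 7.03 to 8.67. Of 18 listed receptor and signalling genes, 17 had a probe set and 12 were tested. In either comparison of times 0 of the 12 passed, with median differences of 0.16 and 0.11. Of all 10295 tested genes, 1294 passed in either direction with CtrlGFP and 1241 with Fezf2GFP. Nearest by p with CtrlGFP were Irf2, a repressor of the response element (-0.42, adjusted p = 0.241), and the kinase gene Jak1 (0.56, adjusted p = 0.259), and with Fezf2GFP Stat3 (-1.08, adjusted p = 0.0980) and Jak1 (0.78, adjusted p = 0.101). With array weights Irf2 passed with CtrlGFP (-0.54) and Stat3 and Jak1 with Fezf2GFP (-1.36 and 0.96). With Fezf2GFP, Stat3 also passed without Fezf2GFP 48 h replicate 4 (adjusted p = 0.0138) and Jak1 without Fezf2GFP 48 h replicate 3 (0.0295).

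Stat3, a STAT of cytokine and growth factor signalling, was the exception between the vectors. It stood at 3.71, 4.09 and 4.71 with CtrlGFP and at 6.99, 6.39 and 6.15 with Fezf2GFP at 24 h, and at 3.47, 3.48, 4.29 and 3.48 against 5.30, 4.66, 5.29 and 6.47 at 48 h. The vectors did not overlap at either time. Stat3 was higher with Fezf2GFP at 24 h (2.34, SE 0.42, adjusted p = 0.0142), and the same held later, with 1.75 at 48 h (SE 0.36, adjusted p = 0.0198). The 24 h call of Stat3 was lost without CtrlGFP 24 h replicate 1 (adjusted p = 0.0637) or 2 (0.0660) or Fezf2GFP 24 h replicate 1 (0.0870), and the 48 h call without CtrlGFP 48 h replicate 4 (0.0646). Averaged over all its probe sets, the 24 h difference of Stat3 was 0.71 (0.0557).

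Of 20 listed genes of nucleic acid sensing outside the panel, 16 had a probe set and 8 were below the dim level on all arrays. In a comparison of times 0 of 6 tested passed, where 1294 (CtrlGFP) and 1241 (Fezf2GFP) of 10295 tested genes did. Irf3, the factor that switches on interferon genes, read 9.60 to 10.98 over the arrays and differed by -0.57 with CtrlGFP (adjusted p = 0.137). Mavs, the adaptor of the RNA sensors, was nearest at -1.04 with CtrlGFP (adjusted p = 0.0830), a value that passed without CtrlGFP 48 h replicate 2 (-1.31, adjusted p = 0.0187). With Fezf2GFP, Ddx41, a DNA sensor, differed by 0.48 (adjusted p = 0.176) and Mavs by -0.57 (adjusted p = 0.384). Of 12 targets of NF-kB, the factor of inflammatory signalling, 10 were below the dim level on all arrays, and the 2 tested did not pass, Nfkbia at 0.18 and 0.26 and Nfkbie at 0.40 and 0.71. Without Fezf2GFP 48 h replicate 4 the Fezf2GFP difference of Nfkbie passed (1.04, adjusted p = 0.0469).

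Part of a list of other interferon-induced genes was also lower at 48 h. Of 44 listed, 41 had a probe set, 14 were below the dim level on all arrays and 23 were tested. With each vector 10 of the 23 were lower and 0 higher, where 6.69% (CtrlGFP) and 5.67% (Fezf2GFP) of all tested genes were lower, and the medians over the 23 were -0.99 and -1.59. These genes went through the same filter, so the floor described above bears on these counts as well. No count restricted to genes above the dim level at both times is given for this list. Rnf213, a giant ubiquitin ligase, read 10.31 to 11.13 with CtrlGFP and 10.54 to 11.27 with Fezf2GFP at 24 h, and 7.56 to 8.0 and 7.28 to 8.13 at 48 h. Rnf213 differed by -2.91 (SE 0.26, adjusted p = 4.65e-05) and -3.04 (SE 0.26, adjusted p = 3.70e-05). Ifi27 differed by -3.52 (adjusted p = 0.00151) and -3.74 (adjusted p = 0.00127), and Parp12 by -2.49 (adjusted p = 0.00688) and -3.62 (adjusted p = 0.000932). Zc3hav1, an antiviral protein that degrades viral RNA, was below the dim level on all 8 arrays of 48 h, at -3.58 and -2.93 (adjusted p = 0.00103 and 0.00408). It was tested only through its 24 h arrays.

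Interferon also raises class I antigen presentation. Of 11 listed genes 10 had a probe set and 6 were tested, and 1 of 6 was lower at 48 h with each vector, Tapbp with CtrlGFP and B2m with Fezf2GFP, where 6.69% and 5.67% of all tested genes were lower. B2m, the light chain of class I molecules, stood at 14.15, 13.04 and 13.02 with CtrlGFP and 13.33, 13.10 and 13.67 with Fezf2GFP at 24 h. At 48 h B2m stood at 11.85, 14.03, 13.40 and 12.75 with CtrlGFP and at 10.41, 11.10, 10.86 and 11.34 with Fezf2GFP, all 4 below the 4 control arrays. It was lower at 48 h with Fezf2GFP (-2.44, SE 0.44, adjusted p = 0.00351) and not with CtrlGFP (-0.40, adjusted p = 0.681). Between the vectors B2m was lower with Fezf2GFP at 48 h (-2.08, SE 0.41, adjusted p = 0.0156), a call lost when only the groups compared entered the fit (0.0584). Without Fezf2GFP 24 h replicate 3 and Fezf2GFP 48 h replicate 1 together, the fall of B2m with Fezf2GFP did not pass (adjusted p = 0.0541). Its difference between the vectors at 48 h did not pass there either (0.0544). The difference between the falls of B2m did not pass (-2.04, SE 0.63, adjusted p = 0.613), but did with array weights (-1.93, 0.0310). Tapbp, a loading factor of class I molecules, was lower with CtrlGFP (-1.31, adjusted p = 0.0182), a call lost without CtrlGFP 24 h replicate 1 (0.0754).

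Of all tested genes outside the panel, the 8 whose levels tracked the per-array median of the 25 tested members most closely were Rnf213 (Pearson r = 0.987), Ifi27 (0.980), Rad54l (0.969), Iqgap3 (0.964), Gins3 (0.959), Kif4 (0.958), Zc3hav1 (0.954) and Pwwp3b (0.952). These r values describe 14 arrays that fall into 2 times, so any gene that was lower at 48 h scores high, and no test goes with them. Of the 8, 3 were on the list of other interferon-induced genes. Kif4, a mitotic kinesin, and Rad54l, a DNA repair helicase of dividing cells, were lower at 48 h as well, Kif4 at -1.74 and -1.64 and Rad54l at -1.54 and -1.57 with CtrlGFP and Fezf2GFP.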

How the data were processed

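The 14 arrays were Affymetrix microarrays of amplified RNA from sorted GFP-positive cells. The deposited values are log2 expression levels per probe set that the authors made with GCRMA, per the submitters' processing notes (version not given in the sources used here). Precision is limited by how many arrays there are. Of 45037 probe sets, 34945 were annotated to 1 symbol, 932 to several and 9160 to none, and the brightest single-symbol probe set over all arrays stood for a gene. Genes above a level of 4 on at least 3 arrays were tested with limma 3.58.1 in R 4.3.3, in 1 fit of the 4 groups with 10 residual degrees of freedom and Benjamini-Hochberg adjustment over 10295 genes in each of 5 comparisons. "At least" folds set a group with all arrays at or below 4 to that level. The fit was tested on simulated data that had 1 spread per gene in all groups and no floor. That test therefore does not cover members that were dim at 48 h or scattered unequally between the times. The members and the gene lists were chosen with earlier results of these data known. Members were named where they passed a comparison or held a key role; from other lists, up to 3 passing genes per comparison by p, or the 2 of smallest p where none passed, were named, and a few further genes are given for their role, chosen after their values were seen. Alternatives changed the dim level, normalization, probe set rule, variance prior, array weights, samples in the fit, replicate block and arrays left out. The labels do not say whether replicate numbers pair the arrays, and the main fit did not pair them.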

Additional observations from a re-analysis of the deposited data

Results flagged for a closer look

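Among 37 member groups of 4 arrays, 4 held an array that stood apart from the rest of its group by Dixon's gap over range; about 1 group in 20 would by chance. Ifi35 on Fezf2GFP 48 h replicate 1 was the highest of its group, at 7.21 against 3.03 to 3.62 (ratio 0.858). Bst2 on CtrlGFP 48 h replicate 2 was the highest, at 4.31 against 2.63 to 2.89 (ratio 0.844). Oas1a on Fezf2GFP 48 h replicate 1 was the highest, at 4.45 against 4.17 to 4.21 (ratio 0.843). Rsad2 on Fezf2GFP 48 h replicate 4 was the lowest, at 4.76 against 4.88 to 4.90 (ratio 0.912).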

How the results depend on the processing

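Over all fits, 13 to 21 members were lower at 48 h with CtrlGFP, 11 to 19 with Fezf2GFP, and 0 were higher; no member's called direction reversed. Without any filter on dim probe sets the median difference between the times was -1.70 with CtrlGFP and -1.33 with Fezf2GFP, and the latter was -3.56 at a dim level of 6 and -2.32 with array weights. With 1 array left out, the members passing numbered 15 to 19 with CtrlGFP and 12 to 18 with Fezf2GFP, with medians of -2.93 to -2.39 and -3.54 to -2.43. Between the vectors, 0 to 1 passed at 24 h (median -0.43 to 0.17) and 0 at 48 h and for the interaction; array weights gave 2 at 24 h. The cause of these shifts was not tested. With 2 choices made after seeing the data, restricting to genes above the dim level at both times and leaving out Fezf2GFP 24 h replicate 3 with 48 h replicate 1, no member passed between the vectors.

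With the replicate number as a block (replicate block), 16 members were lower with CtrlGFP and 13 with Fezf2GFP, and 0 passed between the vectors or for the interaction. Same-numbered arrays correlated between -0.399 and 0.318 over 19 pairs, 5 above 0.1. Between the vectors at 24 h, same-numbered arrays ran from -0.006 to 0.318 (3 pairs). At 48 h they ran from -0.056 to 0.286 (4 pairs). Whether same-numbered arrays of a time shared a batch is not in the labels.

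Counts over all genes moved more. With array weights, 2030 genes passed between the vectors at 24 h (109 otherwise), 550 at 48 h (322), 240 for the interaction (10), 3077 between the times with CtrlGFP (1294) and 3133 with Fezf2GFP (1241). With only the groups compared, 63 passed at 24 h, 168 at 48 h and 797 with CtrlGFP. Leaving out 1 array gave as few as 50 genes between the vectors at 24 h (without CtrlGFP 24 h replicate 2) and up to 165 (without CtrlGFP 48 h replicate 2), as few as 188 at 48 h (without CtrlGFP 48 h replicate 4), 630 between the times with Fezf2GFP (without Fezf2GFP 24 h replicate 3), and 0 to 12 for the interaction. Without Fezf2GFP 24 h replicate 3 and 48 h replicate 1 together, 66 passed at 24 h, 460 between the times with Fezf2GFP and 0 for the interaction. For the interaction, 4 passed at a dim level of 6, 4 with genes above the dim level at both times, and 0 with the block. Between the vectors, changes of 1 log2 unit or more could also go without a call, as with Ifih1 and Irgm1 at 48 h.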
